A study of Mus musculus with 16 samples.

Results

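The genotype effect described here is the difference between fat-1 and wild type (WT) mice in the ileum, averaged with equal weight over pair-fed (PF) and ethanol (EtOH)-fed animals. All 16 libraries of the study entered the comparison, 9 from fat-1 and 7 from WT mice, each from its own mouse. Of the PF mice 4 were WT and 4 fat-1, and of the EtOH-fed mice 3 were WT and 5 fat-1. The question was which transcripts differed between the genotypes whichever diet the mice received. Of the 21965 mouse genes counted, 13811 had enough reads to be tested, and 4158 had no read in any mouse.

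All mice were male C57BL/6 littermates that were 8 to 10 weeks old when the liquid Lieber-DeCarli diet began. EtOH-fed mice received ethanol in steps up to 6% (v/v), which was then held for 3 weeks, and PF mice received the same calories with maltose dextrin in place of ethanol. The mice labelled Fat1+/- carry 1 copy of fat-1, a gene of the worm Caenorhabditis elegans, and are called fat-1 mice here. Mice of both genotypes were fed the same diets, so that the liquid diet is shared by all groups. The transgene is expressed in all tissues, so that the comparison is not one of a change made in the gut alone. RNA came from a whole piece of ileum, which holds epithelium, muscle, vessels, nerves and immune cells. In such bulk tissue, fewer cells of a type and less RNA of a gene per cell cannot be told apart.

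The fat-1 enzyme is an n3 fatty acid desaturase, which mammals lack. It turns n6 polyunsaturated fatty acids (PUFAs) into n3 PUFAs, so that fat-1 mice hold more n3 PUFAs in their tissues without a change of diet. Long-chain fatty acids and their oxidised products are ligands of the nuclear receptor PPAR-alpha, which in the small intestine turns on genes of fatty acid uptake and oxidation. PUFAs also restrain the lipogenic factor SREBP1 and are the substrates from which prostaglandins, leukotrienes and other eicosanoids are made. Genes of these pathways were therefore followed as lists, beside lists of gut regions and cell types.

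Counted reads per library ranged from 8422645 to 11438539, and 3 reads corresponded to 0.246 to 0.421 CPM, the unit of level used here, which is the count of a gene scaled by library size. Marker genes of gut regions set some libraries apart. Fabp6 and Slc10a2, which encode the bile acid binding protein and the bile acid transporter of the ileum, were high in most mice. In fat-1 PF replicates 2 and 4, however, Fabp6 was at 26.1 and 3.31 CPM and Slc10a2 at 7.58 and 3.56 CPM, against at least 845 and 473 CPM in the other PF mice. The same 2 libraries had the highest score of proximal small intestine genes (9.29 and 9.10, given as mean log2 CPM, against 5.02 to 7.65 in the other PF mice). Among EtOH-fed mice, the score of large intestine genes was 7.34 and 7.24 in fat-1 replicates 3 and 4 and 6.34 in WT replicate 2, against 3.22 to 4.17 in the others. In these fat-1 replicates 3 and 4, Lyz1, a lysozyme of Paneth cells, was at 42.7 and 42.3 CPM, against at least 3848 CPM in the other EtOH-fed mice. These 5 libraries go against, or stand apart from, the labelled tissue, and values without them are given beside results that moved. Leaving them out left all WT PF mice, fat-1 PF replicates 1 and 3, WT EtOH replicates 1 and 3 and fat-1 EtOH replicates 1, 2 and 5. Fewer mice also lower the number of genes that reach a given p, so that counts are read beside the share of all genes.

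The transgene is not a mouse gene and its reads were not analysed here, so that the genotype of a library was not checked by them. The mouse gene Fat1, a cadherin whose symbol resembles the genotype label, is unrelated to the transgene. It averaged 323 ± 35.5 CPM (SD, n = 4) in WT PF, 258 ± 42.4 in fat-1 PF (n = 4), 391 ± 48.7 in WT EtOH (n = 3) and 288 ± 128 CPM in fat-1 EtOH mice (n = 5). The groups overlapped in both diets, and the averaged log2 fold change of -0.38 ± 0.20 (SE) did not pass edgeR's quasi-likelihood test (adjusted p = 0.526). It was -0.21 without the 5 libraries.

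A single gene passed the test of a difference between fat-1 and WT mice over both diets. Arl4a was lower in fat-1 mice, and it was 1 of 13811 genes at an adjusted p of 0.05 or less in edgeR's quasi-likelihood test (0.00724% of the genes tested). The next smallest adjusted p was 0.457. At an unadjusted p under 0.05 there were 1410 genes (10.2%), of which 985 were higher (7.13%) and 425 lower (3.08%) in fat-1 mice. This count was between 886 and 1996 when any 1 mouse was left out, with 4.19% to 8.81% of all genes higher and 1.91% to 5.67% lower. It fell outside 1.5 times the full count without fat-1 PF replicate 2 (908), fat-1 PF replicate 4 (886) and WT EtOH replicate 3 (907). Without the 5 libraries that stand apart it was 613, and Arl4a was again the 1 gene that passed. In some alternatives a second gene passed. This was H2-Q10 with the Wald test of DESeq2 or without fat-1 PF replicate 3, and Cyp4a10 with the region scores as covariates.

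The genotype effects of the 2 diets, which share no mouse, had little in common across genes. The log2 fold change had the same sign in PF and in EtOH-fed mice for 49.9% of the genes tested. Of the 500 genes of smallest p in PF mice this was so for 58.0%, and of the 500 of smallest p in EtOH-fed mice for 48.0%. Spearman's rho between the log2 fold changes of the 2 diets across 13811 genes was -0.05, a description in which genes are not independent replicates. An unadjusted p under 0.05 in both diets with the same sign was found for 30 genes (0.217%, beside 12.7% of genes in PF and 4.86% in EtOH-fed mice), and with opposite signs for 16 genes (0.116%). The median standard error was 0.14 for the averaged effect, 0.20 in PF and 0.20 in EtOH-fed mice on the log2 scale, beside a median absolute log2 fold change of 0.13, 0.18 and 0.18. A difference of the genotype effect between the diets (the interaction term) was called for 0 genes by edgeR, DESeq2 and limma voom. In edgeR, 1141 genes (8.26%) had an unadjusted interaction p under 0.05.

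**Figure D1:**
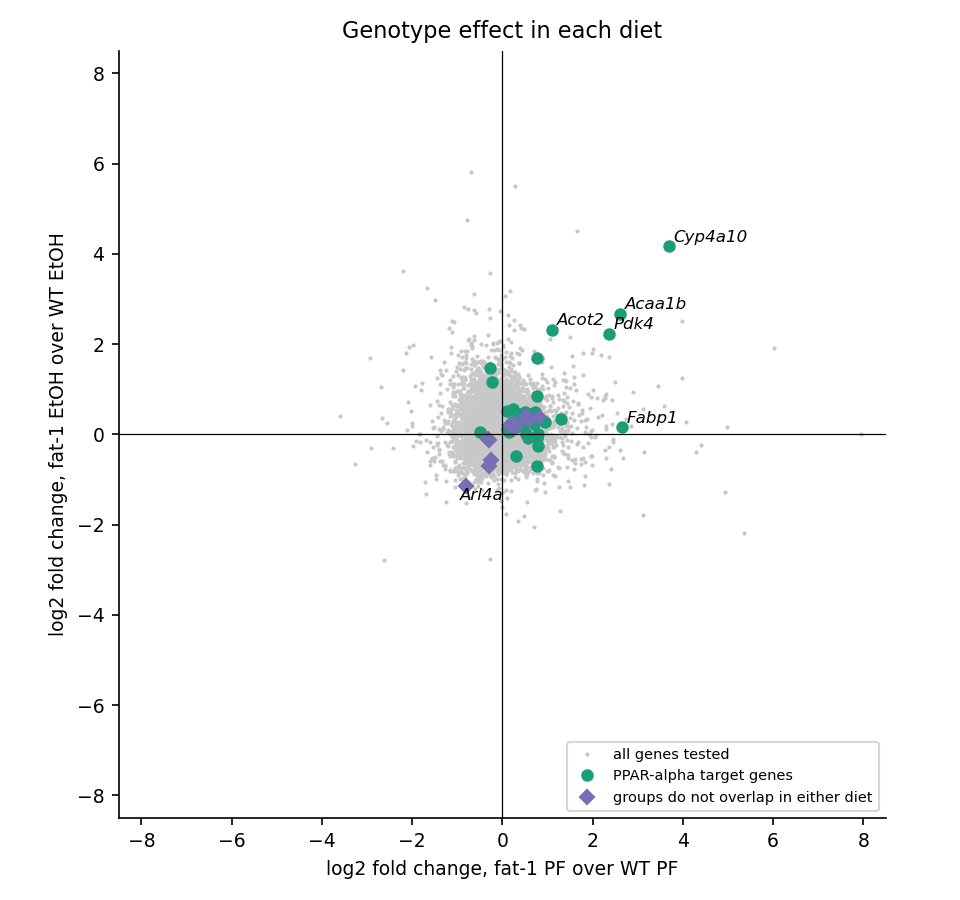
Each point is a gene, with its log2 fold change between fat-1 and WT mice in PF mice on the x axis and in EtOH-fed mice on the y axis. Grey points are all 13811 genes tested, green circles 34 PPAR-alpha target genes and purple diamonds the 12 genes whose genotypes do not overlap in either diet. The grey cloud has no slope (rho -0.05), and Arl4a lies at -0.82 in PF and -1.14 in EtOH-fed mice.

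Arl4a (ENSMUSG00000047446) encodes a small GTPase of the ARL4 group of ADP-ribosylation factor-like proteins. ARL4 proteins sit at the plasma membrane, where they recruit cytohesins, the exchange factors of ARF GTPases, and take part in actin remodelling and membrane traffic. The gene lies on the minus strand of chromosome 12 (GRCm38, chr12:40005447-40038025). No other annotated gene overlaps it, and 1.01% of the 75-base runs in its transcripts also occur in transcripts of another gene. The 250 bases before a start that RefSeq lists are shown because transcription of Arl4a begins near there, and the gene span given above reaches into them. They hold 74.8% G and C, against a median of 52.4% over the 32851 mouse start regions of the table, and 39 CpG pairs against a median of 6. Capitals mark the letters TGACCT, the reverse complement of AGGTCA, which is the half-site read by PPAR-alpha and other nuclear receptors. It was searched on both strands and is present in 14% of all such regions, so that its presence is a description only. RefSeq lists a second start of Arl4a, whose 250 bases hold no AGGTCA.

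Arl4a, chr12:40037988-40038237, minus strand, GRCm38.p6 (RefSeq): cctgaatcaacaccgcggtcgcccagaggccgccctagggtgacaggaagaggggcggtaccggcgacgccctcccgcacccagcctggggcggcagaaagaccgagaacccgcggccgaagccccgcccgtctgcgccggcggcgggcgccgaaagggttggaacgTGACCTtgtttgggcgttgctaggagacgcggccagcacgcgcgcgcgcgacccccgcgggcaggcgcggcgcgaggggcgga

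In PF mice, Arl4a was at 67.2, 77.2, 77.4 and 83.1 CPM in WT and at 35.8, 45.3, 54.9 and 37.3 CPM in fat-1 mice. In EtOH-fed mice, it was at 85.2, 66.4 and 82.8 CPM in WT and at 32.6, 36.2, 35.7, 41.2 and 31.2 CPM in fat-1 mice. Every fat-1 mouse was below every WT mouse, within each diet and across diets. The means were 76.2 ± 6.62 CPM (SD, n = 4) in WT PF, 43.4 ± 8.78 (n = 4) in fat-1 PF, 78.2 ± 10.2 (n = 3) in WT EtOH and 35.4 ± 3.87 CPM (n = 5) in fat-1 EtOH mice.

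Averaged over the diets, the log2 fold change of Arl4a was -0.98 ± 0.097 (SE; adjusted p = 0.000704, edgeR), a 1.97-fold lower level in fat-1 mice. It was -0.82 ± 0.14 in PF and -1.14 ± 0.14 in EtOH-fed mice, and the difference between the diets did not pass the test of interaction (unadjusted p = 0.113). The gene passed in all 29 alternative analyses, with log2 fold changes between -1.09 and -0.89 and adjusted p between 3.8e-16 and 0.0186. Without the 5 libraries that stand apart by region markers, the log2 fold change was -1.05 (adjusted p = 0.0126). With the scores of both region lists as covariates, it was -0.89 (adjusted p = 0.00221). The 4 fat-1 libraries among those 5 lay at 35.7 to 45.3 CPM, within the 31.2 to 54.9 CPM of the other fat-1 mice.

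The other 2 ARL4 genes did not show this pattern. Per kb of exon, Arl4d had the highest level of the family in WT PF mice (26.1 CPM per kb), followed by Arl4a (9.90) and Arl4c (0.804). Arl4d was at 32.9 to 42.9 CPM in WT PF and 30.9 to 57.5 CPM in fat-1 PF mice, and at 27.1 to 28.7 CPM in WT EtOH and 9.72 to 38.1 CPM in fat-1 EtOH mice. Its genotypes overlapped in both diets, and the log2 fold change was -0.03 ± 0.27 (adjusted p = 0.973), with the opposite sign in 9 of the alternative analyses (0.24 without the 5 libraries). Arl4c was at 1.25 to 6.18 CPM in all mice apart from fat-1 EtOH replicate 5, in which it was at 33.3 CPM. Its log2 fold change was 0.60 ± 0.53 (adjusted p = 0.709), and without that mouse -0.12.

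**Figure D2:**
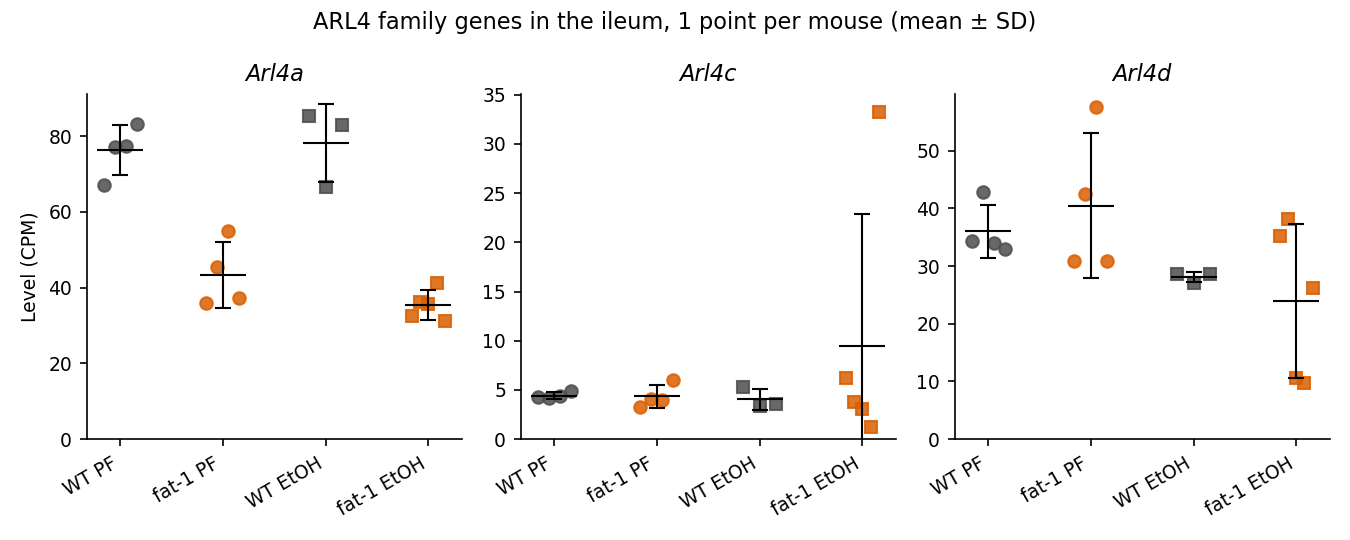
Levels of Arl4a, Arl4c and Arl4d in CPM (y axes, each from 0) in the 4 groups (x axis), with 1 point per mouse and the mean ± SD in black. The 9 fat-1 mice (orange) lie between 31.2 and 54.9 CPM for Arl4a, below the 7 WT mice (grey) at 66.4 to 85.2 CPM, while the genotypes overlap for Arl4c and Arl4d.

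Cytohesins and other ARF-like GTPases were followed as a list of 17 genes, all of them tested. Besides Arl4a, none was called. At an unadjusted p under 0.05, 1 was higher (5.88%, beside 7.13% of all genes) and 2 were lower with Arl4a counted (11.8%, beside 3.08%). The other 2 were Arl3, which acts in ciliary transport (0.25 ± 0.11), and Arl5b, a GTPase of the Golgi apparatus (-0.41 ± 0.16). Arl3 was at 0.16 without the 5 libraries. The cytohesins Cyth1 and Cyth2 had log2 fold changes of 0.14 ± 0.09 and -0.06 ± 0.10, and Cyth2 at -0.04 without the 5 libraries. The median of the list was 0.02, beside 0.04 over all genes tested.

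Genes close to Arl4a on chromosome 12 were also examined. Within 5 Mb on each side, 21 further genes were tested, and none was called. At an unadjusted p under 0.05 there were 3 higher and 1 lower, 19.0% of the 21 genes, beside 10.2% of all genes. Scin, which encodes the actin-severing protein scinderin (chr12:40059769-40134228), had a log2 fold change of -0.64 ± 0.25. Dock4, an activator of Rac GTPases, was at 0.46 ± 0.17, Tspan13 at 0.53 ± 0.18 and Stxbp6 at 0.44 ± 0.14. In the 11 mice left without the 5 libraries that stand apart, Scin was at -0.32, Dock4 at 0.28, Tspan13 at 0.13 and Stxbp6 at 0.43.

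The genes that followed Arl4a in the ranking did not pass the adjustment for multiple testing, and their values are given as a description. An averaged p under 0.05 with 1 sign in both diets was found for 9.48% of the genes tested. Among the 30 of these with the smallest p, Arl4a included, 18 were higher and 12 lower in fat-1 mice, with log2 fold changes from -1.14 to 2.11. For 10 of the 30 the unadjusted interaction p was under 0.05, beside 8.26% of all genes. In the 11 mice left without the 5 libraries that stand apart, all 30 had the sign of the full comparison and 29 an unadjusted p under 0.05, but these mice are also part of the full comparison.

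Among the higher genes, Fdxr, the ferredoxin reductase of steroid and iron-sulfur cluster synthesis, was at 9.37 ± 0.452 CPM in WT PF and 14.6 ± 1.51 in fat-1 PF mice, and at 7.94 ± 0.861 in WT EtOH and 9.47 ± 1.28 CPM in fat-1 EtOH mice (log2 fold change 0.45 ± 0.093, adjusted p = 0.457). Tfam, the transcription factor that packages and transcribes mitochondrial DNA, was at 42.6 to 49.8 CPM in WT PF and 52.9 to 61.1 in fat-1 PF mice, and at 43.4 to 46.5 in WT EtOH and 49.5 to 52.8 CPM in fat-1 EtOH mice. Its difference was small but the genotypes did not overlap in either diet (0.25 ± 0.053, adjusted p = 0.457). Ndufa12 and Ndufb6, subunits of respiratory complex I, had log2 fold changes of 0.42 and 0.37, and Mrps15, a mitochondrial ribosomal protein, of 0.41. Of the 75-base runs of Ndufa12, 14.6% also occur in other genes. For Ndufa12 and Mrps15, the unadjusted interaction p was 0.0107 and 0.00283, with log2 fold changes of 0.70 and 0.80 in PF against 0.14 and 0.03 in EtOH-fed mice. Sod1, the cytosolic superoxide dismutase, had a log2 fold change of 0.39 ± 0.10. Leaving out the 5 libraries gave 0.26 for Sod1, 0.27 for Mrps15 and 0.22 for Ndufb6.

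H2-Q10, a class Ib histocompatibility gene known for its secreted product, had the largest log2 fold change of the 30 genes (2.11 ± 0.48, adjusted p = 0.457). It was at 3.06 to 4.55 CPM in WT PF mice and at 18.0, 87.6, 4.65 and 72.9 CPM in fat-1 PF mice. In EtOH-fed mice it was at 2.20 to 4.48 CPM in WT and 3.42 to 7.32 CPM in fat-1 mice. The highest values were those of fat-1 PF replicates 2 and 4, the libraries with high proximal scores, and without the 5 libraries that stand apart the log2 fold change was 0.87. H2-Q10 also passed the test with the Wald test of DESeq2 (adjusted p = 0.00611) and without fat-1 PF replicate 3 (adjusted p = 0.0400). Of the 75-base runs in its transcripts, 12.5% also occur in other genes, most of them in H2-Q7, so that its level is less certain. Gstm7, a glutathione transferase, had a log2 fold change of 1.49 ± 0.39 and 0.62 without the 5 libraries.

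Among the lower genes, Trpc1, a cation channel subunit, had a log2 fold change of -1.14 ± 0.29. It was at 4.26 to 9.98 CPM in WT PF and 1.97 to 3.83 CPM in fat-1 PF mice, with no overlap, but at 4.30 to 16 CPM in WT EtOH and 2.99 to 6.63 CPM in fat-1 EtOH mice, which overlapped. Acp1, a low molecular weight protein tyrosine phosphatase that also lies on chromosome 12, had a log2 fold change of -0.49 ± 0.12, and 11.3% of its 75-base runs also occur in other genes. Sash1, Tet3 and Zmiz1 had log2 fold changes of -0.51, -0.33 and -0.36, and Tet3 encodes a dioxygenase that oxidises 5-methylcytosine. Rapgefl1 and Rprd1a had -0.32 and -0.43, and both had an unadjusted interaction p near 0.01 (0.0148 and 0.01), with the larger difference in PF mice. Zfp37, a zinc finger gene, had -1.69 in PF and -0.13 in EtOH-fed mice. Leaving out the 5 libraries gave -0.18 for Tet3, and -0.58 for Zfp37 against -0.91 with them.

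Every fat-1 mouse was on 1 side of every WT mouse within PF and within EtOH for 12 genes (0.0869% of the genes tested). This was so for 949 genes (6.87%) in PF and for 338 genes (2.45%) in EtOH-fed mice, and for 7 genes (0.0507%) the directions in the 2 diets were opposite. Higher in fat-1 mice were Acot13, Plau, Adck1, Tfam, Taf6l, Rpl35a and Rpl36, and lower were Arl4a, Raph1, Mb21d2, Atxn1l and Zbtb7a. These were 0.0507% and 0.0362% of the genes tested, and all but Arl4a failed the adjustment for multiple testing.

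Acot13, a thioesterase that splits fatty acyl-CoA, was the largest of the higher genes, at 26.0 to 37.1 CPM in WT PF and 42.7 to 81.8 CPM in fat-1 PF mice. In EtOH-fed mice it was at 23.4 to 24.0 CPM in WT and 24.1 to 38.0 CPM in fat-1 mice (0.59 ± 0.15). Plau, the urokinase-type plasminogen activator, was at 3.74 to 5.77 CPM in WT PF and 5.83 to 8.35 in fat-1 PF mice, and at 5.55 to 5.91 in WT EtOH and 6.29 to 10.8 CPM in fat-1 EtOH mice (0.47 ± 0.15). Raph1, which encodes the actin regulator lamellipodin, was at 150 to 177 CPM in WT PF and 98.7 to 141 in fat-1 PF mice, and at 154 to 182 in WT EtOH and 63.8 to 141 CPM in fat-1 EtOH mice (-0.50 ± 0.15). The separation could be narrow, as for Acot13 in EtOH-fed mice. Leaving out the 5 libraries gave 0.27 for Acot13, 0.24 for Plau, 0.28 for Adck1 (0.43 with them), -0.32 for Raph1 and -0.25 for Mb21d2 (-0.41 with them). Rpl35a and Rpl36 differed by log2 fold changes of 0.20 and 0.18, and 70.9% of the 75-base runs of Rpl36 also occur in other genes, so that its level is uncertain.

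PPAR-alpha target genes were mostly on the higher side in fat-1 mice, in both diets, but none passed the test. Of 40 such genes, 36 were tested, and Acot3, Acot5, Cyp4a14 and Cyp4a31 had too few reads. The log2 fold change was positive for 34 of the 36 genes, beside 58.9% of all genes. At an unadjusted p under 0.05, 19 were higher (52.8% of the list, beside 7.13% of all genes) and 0 lower. Cyp4a10 is 1 of the 19, though most WT mice had no read of it. The median was 0.40, beside 0.04 over all genes, with 0.51 in PF and 0.31 in EtOH-fed mice, and 27 of the 36 genes were positive in both diets.

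These genes serve different steps of fatty acid use. Plin2, which coats lipid droplets, was at 70.0 to 84.6 CPM in WT PF mice and at 92.2, 159, 84.3 and 185 CPM in fat-1 PF mice. In EtOH-fed mice it was at 67.0 to 77.9 CPM in WT and at 75.3, 84.4, 215, 218 and 76.2 CPM in fat-1 mice (0.82 ± 0.26). The high values were those of fat-1 PF replicates 2 and 4 and fat-1 EtOH replicates 3 and 4. Pdk4, the kinase that shuts pyruvate out of oxidation, was at 5.21 to 9 CPM in WT PF mice and at 26.5, 35.9, 8.06 and 84.3 CPM in fat-1 PF mice. Under EtOH it was at 4.66, 33.5 and 4.96 CPM in WT and at 5.42, 5.70, 191, 123 and 8.38 CPM in fat-1 mice (2.29 ± 0.84). The mice with high values were again mostly those with high region scores, WT EtOH replicate 2 among them. Leaving out the 5 libraries gave 0.16 for Plin2 and 0.81 for Pdk4.

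Mitochondrial fatty acid oxidation was represented by Cpt2, the inner carnitine palmitoyltransferase (0.40 ± 0.12), Acadvl, which oxidises very long acyl chains (0.53 ± 0.19), and the trifunctional protein subunits Hadha (0.43 ± 0.17) and Hadhb (0.50 ± 0.22). Cpt1a, the outer and rate-limiting carnitine palmitoyltransferase, was at 0.31 ± 0.21. Of the peroxisomal enzymes, Acaa1b was at 2.64 ± 1.06 and Ech1 at 0.41 ± 0.18. Of the 75-base runs of Acaa1b, 24.4% also occur in other genes, mostly in Acaa1a. The acyl-CoA thioesterases Acot1 and Acot2 were at 1.24 ± 0.49 and 1.71 ± 0.62, and 15.0% and 21.2% of their 75-base runs also occur in other genes, mostly in each other. Without the 5 libraries that stand apart, all of these values were smaller, at 0.24 for Cpt2, 0.21 for Acadvl, 0.15 for Hadha, 0.15 for Hadhb and 0.02 for Cpt1a. Acaa1b was then at 0.97, Ech1 at 0.16, Acot1 at 0.35 and Acot2 at 0.63.

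Cyp4a10, an omega-hydroxylase of fatty acids of whose 75-base runs 18.4% also occur in other genes, had the largest log2 fold change among all genes with an unadjusted p under 0.05 (3.92 ± 1.37). Its levels were near the limit of detection, however, with 0 CPM in 3 of 4 WT PF and in 2 of 3 WT EtOH mice, so that the fitted fold depends on the small count added before logs are taken. In fat-1 mice it was at 0.530, 2.95, 0.137 and 4.05 CPM under PF and at 0, 0, 7.38, 4.91 and 0 CPM under EtOH. It passed when the region scores entered as covariates (adjusted p = 0.00327, edgeR) but had too few reads to be tested without the 5 libraries that stand apart. It thus entered the test only through those libraries, most of them fat-1, so that neither the fold nor this pass is read as a result. Fabp1, the liver-type fatty acid binding protein, is a member of this list and of the proximal list, and was at 32.9 to 1544 CPM in WT PF and 766 to 7519.8 CPM in fat-1 PF mice against 7.24 to 15.7 CPM in all EtOH-fed mice. The list also held Vnn1 and Fabp2, with log2 fold changes of -0.23 ± 0.24 and -0.08 ± 0.27. Ppara itself was at 0.07 ± 0.27. In the absence of the 5 libraries the sign turned for Vnn1 (0.15), Fabp2 (0.22) and Ppara (-0.31), and Fabp1 was at 0.59 against 1.41 ± 0.61 with them.

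**Figure D3:**
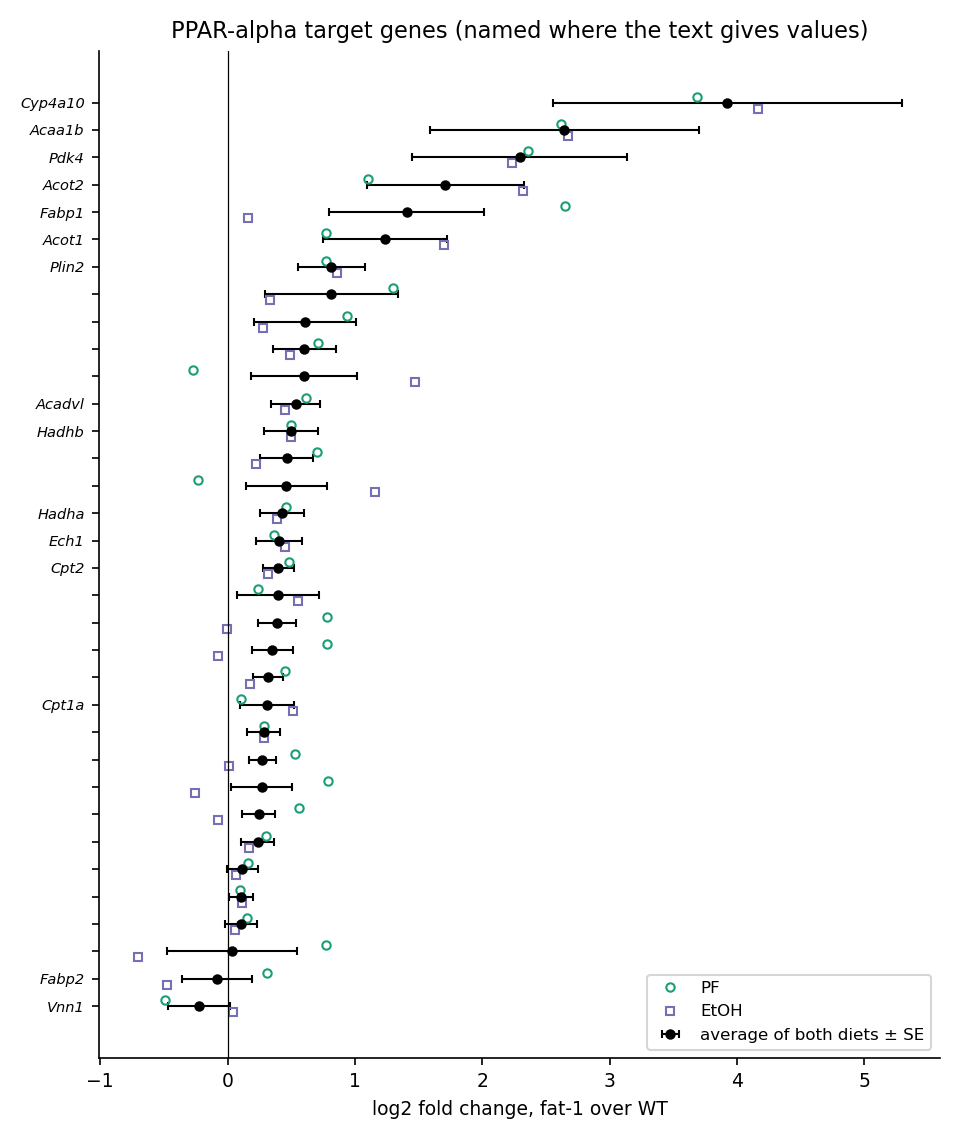
Log2 fold change between fat-1 and WT mice (x axis) of 34 of the 36 PPAR-alpha target genes tested (y axis, named where the text gives values), as the average of both diets ± SE (black), in PF (green circles) and in EtOH-fed mice (purple squares). The averaged value is above 0 for 32 of the genes drawn, and runs from -0.23 for Vnn1 to 3.92 for Cyp4a10.

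Of the PPAR-alpha target genes, the start region of Fabp1 holds the full direct repeat that PPAR-alpha binds together with RXR. It was searched as the letters AGGNCA, any 1 base and AGGNCA again, on both strands in the 250 bases before each start, and is present in 0.338% of all 32851 regions. Among 32 regions of 29 genes of the list it is present in 1, that of Fabp1. The half-site AGGTCA is present in 11 of these 32 regions (34.4%), beside 14% of all regions. The sequence before Fabp1 is shown with the match in capitals, and it begins 67 bases before the start.

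Fabp1, chr6:71199629-71199878, plus strand, GRCm38.p6 (RefSeq): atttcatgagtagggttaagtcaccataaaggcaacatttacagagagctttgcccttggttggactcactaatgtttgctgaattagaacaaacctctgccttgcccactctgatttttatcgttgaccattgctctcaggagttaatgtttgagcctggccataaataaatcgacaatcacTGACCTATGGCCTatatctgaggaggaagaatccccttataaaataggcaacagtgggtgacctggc

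The level of the PPAR-alpha target list in single mice followed the libraries that stand apart. As mean log2 CPM of the 36 genes, it was 5.67 to 6.18 in WT PF mice and 6.38, 6.93, 6.23 and 6.89 in fat-1 PF mice, so that the PF genotypes did not overlap. In EtOH-fed mice it was 5.37, 6.03 and 5.36 in WT and 5.46, 5.53, 6.64, 6.68 and 5.55 in fat-1 mice, and the 3 high values were those of the libraries with high large intestine scores. The part of gut region in the list's difference was not tested apart from these values. Without the 3 libraries with a high large intestine score, 12 genes were higher at an unadjusted p under 0.05 (beside 4.73% of all genes) and the median was 0.29 (0.08 in EtOH-fed mice). With both region scores as covariates, 15 were higher (beside 4.67% of all genes) and the median was 0.30. Without fat-1 PF replicates 2 and 4, 1 gene was higher (beside 1.68% of all genes) and the median was 0.32. Without all 5, 4 of 35 were higher (beside 1.87% of all genes) and the median was 0.16, with 32 genes positive. Leaving out a single mouse also moved the count of 19 by over 1.5 times. It was 7 without WT EtOH replicate 1 (beside 4.51% of all genes) and 10 without WT EtOH replicate 3 (4.51%) or fat-1 PF replicate 2 (4.28%). It was 12 without fat-1 PF replicate 4 (4.19%) or fat-1 EtOH replicate 3 (5.06%) or 4 (4.59%).

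**Figure D4:**
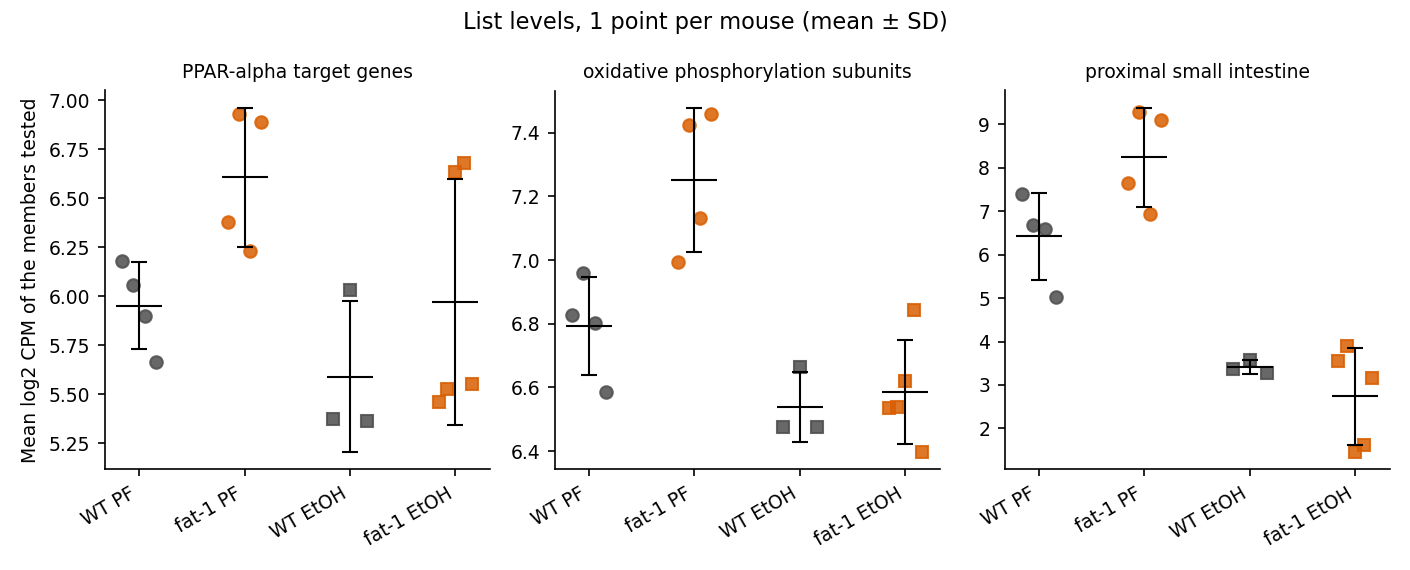
Mean log2 CPM (y axes, which do not start at 0) of PPAR-alpha target genes, oxidative phosphorylation subunits and proximal small intestine genes in the 4 groups (x axis), with 1 point per mouse and the mean ± SD in black. Fat-1 PF replicates 2 and 4 are the highest PF mice in all 3 panels (6.93 and 6.89 for the PPAR-alpha list), and the 2 high fat-1 EtOH mice of the first panel (6.64 and 6.68) are the lowest for proximal genes.

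Other lipid genes showed smaller differences. Of 20 genes of lipogenesis, Srebf1, which encodes SREBP1, was the 1 gene at an unadjusted p under 0.05 (5%, below the 7.13% of all genes). It was at 0.44 ± 0.16, with 0.79 in PF and 0.10 in EtOH-fed mice, and 0.11 as the average without the 5 libraries that stand apart. The median of that list was 0.06, and -0.14 without the 5 libraries, with 6 of 20 genes positive. Of 15 PUFA desaturases and elongases tested, 0 had an unadjusted p under 0.05 and the median was -0.02 (0.01 without the 5 libraries). Fads1 and Fads2, the delta-5 and delta-6 desaturases through which both n6 and n3 PUFAs pass, were at 0.21 ± 0.15 and -0.37 ± 0.20, and at -0.09 and -0.22 without the 5 libraries. Genes of cholesterol synthesis and uptake were nearly all on the lower side. Of 26, 25 had a negative log2 fold change, beside 41.1% of all genes, with a median of -0.24 (-0.17 in PF, -0.30 in EtOH), but 0 had an unadjusted p under 0.05. Without the 5 libraries that stand apart, 12 of the 26 were positive and the median was -0.01. In the other direction, 7 were lower at an unadjusted p under 0.05 and the median was -0.37 without fat-1 PF replicate 1, where 5.67% of all genes were lower.

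Of 31 eicosanoid and oxylipin enzymes tested, 5 were higher and 1 lower at an unadjusted p under 0.05 (16.1% and 3.23%, beside 7.13% and 3.08%), and none was called. Pla2g4c, a cytosolic phospholipase A2 that frees fatty acids from membranes, had the largest negative value (-2.71 ± 0.85). It was at 7.81 to 48.3 CPM in WT PF and 0.842 to 8.75 CPM in fat-1 PF mice. Under EtOH it was at 1339, 84.4 and 103 CPM in WT mice and at 90.1, 107, 4.92, 3.48 and 163 CPM in fat-1 mice, so that the genotypes overlapped in both diets. It was at -2.24 without the 5 libraries that stand apart (adjusted p = 0.910, edgeR). Cbr1, a carbonyl reductase that acts on prostaglandin E2, was at 1.06 ± 0.35, Ephx2, the soluble epoxide hydrolase, at 0.94 ± 0.32, and Ltc4s, leukotriene C4 synthase, at 1.05 ± 0.37. For these 3 genes the highest PF values were in fat-1 PF replicates 2 and 4, and without the 5 libraries Cbr1 was at 0.27, Ephx2 at 0.32 and Ltc4s at 0.23. The median of the list was 0.17, and 0.03 without the 5 libraries. The count of 5 was 0 without fat-1 PF replicates 2 and 4 (beside 1.68% of all genes), 3 without fat-1 PF replicate 2 alone (4.28%) and 8 without fat-1 EtOH replicate 5 (7.44%).

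Receptors of fatty acids and eicosanoids gave 0 higher and 2 lower of 24 tested (8.33%, beside 3.08% of all genes). These were Rxra, the partner of PPARs on DNA (-0.20 ± 0.08), and Ptger4, the prostaglandin receptor EP4 (-0.35 ± 0.15). Rxra was at -0.13 without the 5 libraries. The median was 0.05, and -0.08 without the 5 libraries.

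Of 19 Toll-like receptors and adaptors, 0 were higher and 1, the ubiquitin ligase gene Traf6, was lower (-0.23 ± 0.10, and -0.03 without the 5 libraries), 5.26% of the list beside 3.08% of all genes. The median was 0.16, and 0.08 without the 5 libraries. Without fat-1 EtOH replicate 5 alone it was -0.0063. Of 11 adenosine signaling genes, 0 had an unadjusted p under 0.05, with a median of -0.07 (-0.13 without the 5 libraries). Of 27 genes of inflammation and JAK-STAT signaling, 1 was lower, the cytokine signaling inhibitor Socs1 (-0.57 ± 0.25, and -0.27 without the 5 libraries), 3.70% of the list beside 3.08%. The median was -0.02, and 0.01 without the 5 libraries.

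Of 22 gasdermins and inflammasome genes, 1 was higher and 5 were lower (4.55% and 22.7%, beside 7.13% and 3.08%). The lower genes included Naip2 and Naip6, which encode sensors of bacterial proteins in the inflammasome. Naip2 was at 99.6 to 132 CPM in WT PF and 57.7 to 97.7 in fat-1 PF mice, with no overlap, and at 118 to 132 in WT EtOH and 85.5 to 123 CPM in fat-1 EtOH mice, which overlapped (-0.39 ± 0.11, adjusted p = 0.457). Naip6 was at -0.63 ± 0.23, and at -0.37 without the 5 libraries. Of their 75-base runs, 10.7% and 12% also occur in other genes, of which Naip1 and Naip5 share the most. The median of the list was -0.17, and -0.03 without the 5 libraries. The count of lower genes was also 5 without all 5 libraries that stand apart (beside 2.6% of all genes) and 8 with the region scores as covariates (5.52%). It was 1 without fat-1 PF replicates 2 and 4 (1.25%). With 1 mouse left out it was 2 without fat-1 PF replicate 2 (2.31%) and 3 without WT PF replicate 4 (2.27%) or fat-1 PF replicate 4 (2.23%). It was 10 without fat-1 PF replicate 3 (5.06%).

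Of 24 tight junction genes, 0 were higher and 3 lower (12.5%, beside 3.08%), with a median of -0.16 and 20 negative values. The median was -0.07 without the 5 libraries, and 7 of the 24 values were positive. Tjp1, the scaffold protein ZO-1, was at -0.32 ± 0.13 and Cgn, cingulin, at -0.20 ± 0.08. Tjp1 was at -0.21 without the 5 libraries. The count of 3 was 1 without WT EtOH replicate 1 (beside 2.23% of all genes) or 3 (1.91%) and also without the 5 libraries that stand apart (2.6%). It was 1 without fat-1 PF replicates 2 and 4 (1.25%) and 6 with the region scores as covariates (5.52%). With DESeq2 size factors (3.46%) or upper-quartile scaling (3.79%) it was 5. It was 6 without fat-1 EtOH replicate 1 (4.22%) and 7 without fat-1 EtOH replicate 2 (4.46%).

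Region and cell type lists often had medians of opposite sign in the 2 diets. Proximal small intestine genes had a median of 0.75, which was made of 1.80 in PF and -0.29 in EtOH-fed mice. Of 23, 6 were higher at an unadjusted p under 0.05 (26.1%, beside 7.13% of all genes), among them Ckb (1.02 ± 0.33) and Cyp2d26 (1.16 ± 0.40). None was without the 5 libraries that stand apart (beside 1.87% of all genes), with Ckb at 0.23, Cyp2d26 at 0.59 and a median of 0.42. Fat-1 PF replicates 2 and 4 were set apart by the score of this same list, so that a smaller difference without them follows from that choice. With 1 mouse left out the count was 3 without fat-1 PF replicate 2 or WT EtOH replicate 1 or 3, where 4.28% to 4.51% of all genes were higher. The summed level of the list was 6459.6 to 25474 CPM in WT PF and 18381 to 73080 in fat-1 PF mice, and 3462 to 3721 in WT EtOH and 768 to 4192 CPM in fat-1 EtOH mice.

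Ileal bile acid genes had a median of -0.55, and 9 of 10 were negative in both diets. The exception was Nr0b2, a repressor of bile acid synthesis, which had 1.86 ± 0.71 at levels near the limit of detection (0.104 to 0.226 CPM in WT PF and 0.547 to 4.05 CPM in fat-1 PF mice). Fgf15, the ileal hormone that restrains bile acid synthesis in the liver, varied widely within groups. It was at 3.39, 1.92, 64.1 and 21.2 CPM in WT PF, 0.742, 0.140, 74.9 and 0 in fat-1 PF, 108, 20.4 and 65.1 in WT EtOH and 27.3, 15.6, 0.0820, 0.268 and 4.36 CPM in fat-1 EtOH mice (-1.52 ± 1.11, and -0.88 without the 5 libraries). The median of the list was -0.02 without the 5 libraries that stand apart, over the 9 genes tested. Low Fabp6 and Slc10a2, both of this list, had marked fat-1 PF replicates 2 and 4, so that this value is not a separate test.

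Paneth cell genes were negative for all 12 members, with a median of -0.74 (-0.69 in PF and -0.89 in EtOH), and 0 had an unadjusted p under 0.05. The summed level was 23107 to 30971 CPM in WT PF and 6860 to 27210 in fat-1 PF mice, and 11367 to 23153 in WT EtOH and 255 to 19545 CPM in fat-1 EtOH mice. Lyz1 was at -0.75 ± 0.79, and at -0.20 without the 5 libraries. The median of the list was -0.25 without the 5 libraries, with 2 of 12 lower at an unadjusted p under 0.05 (beside 2.6% of all genes). With the region scores as covariates it was -1.54, with 9 of 12 lower (beside 5.52% of all genes). Large intestine genes had a median of -0.08, with -0.52 in PF and 0.71 in EtOH-fed mice, and with 1 mouse left out the average ranged from -0.27 without fat-1 EtOH replicate 3 to 0.81 without WT EtOH replicate 2. It was -0.03 without the 5 libraries, some of which were chosen by the score of this same list. For these region and Paneth lists, the levels of the 5 libraries moved with the difference, and their part in it was not tested further.

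Of 15 enteroendocrine genes, 3 were higher at an unadjusted p under 0.05 (20%, beside 7.13% of all genes), among them Chgb, a granin of secretory granules (1.07 ± 0.39), and Tph1, which makes serotonin (1.29 ± 0.48). Tph1 was at 62.1 and 48.4 CPM in fat-1 EtOH replicates 3 and 4 against 5.25 to 12.8 CPM in the other EtOH-fed mice, and without the 5 libraries none of the 15 was higher, with Chgb at 0.04, Tph1 at 0.03 and a median of -0.02 against 0.34 with them. Of 20 stem cell and proliferation genes, 1 was lower (5%, beside 3.08% of all genes), the stem cell marker Lgr5 (-0.50 ± 0.19). That count was 7 without fat-1 PF replicate 1 (beside 5.67% of all genes) and 4 without fat-1 EtOH replicate 1 (4.22%), without WT EtOH replicate 2 (3.19%) or with the region scores as covariates (5.52%). It was 2 without the 5 libraries (2.6%). The median of that list was -0.22, and -0.10 without the 5 libraries. Goblet and tuft cell genes had medians of 0.16 and -0.08, and without the 5 libraries of -0.06 and -0.15.

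B cell genes had a median of 0.38, with -0.53 in PF and 1.39 in EtOH-fed mice, and 0 of 15 had an unadjusted p under 0.05. Their summed level reached 932 CPM in fat-1 EtOH mice, against at most 196 CPM in the other groups. A single mouse set this sign, since fat-1 EtOH replicate 5 had a mean log2 CPM of 5.86 against -0.73 to 3.42 in the rest of its group, and without it the median was -0.45. T cell, plasma cell and macrophage genes had medians of 0.20, 0.04 and 0.26. At an unadjusted p under 0.05 there were 0 of 17 T cell and 0 of 11 plasma cell genes. Of 15 macrophage genes, 1 was higher and 1 lower (6.67% each, beside 7.13% and 3.08% of all genes). These were Cd209b, a lectin of macrophages in lymphoid tissue (3.08 ± 1.19), and the scavenger receptor gene Cd163 (-0.65 ± 0.28). Without fat-1 EtOH replicate 5 the T cell median was -0.46, with 5 of 17 genes lower (beside 4.09% of all genes), and the macrophage median was 0.03. When the 5 libraries were left out instead, the medians were 0.91 for B cell, 0.40 for T cell, -0.03 for plasma cell and 0.19 for macrophage genes. Cd209b was at 45.8 CPM in fat-1 EtOH replicate 5 and at most 0.760 CPM in the other mice of that group. Smooth muscle, enteric nerve, endothelium, adipocyte and red blood cell genes had medians of 0.04, 0.12, 0.25, -0.09 and 0.41, and in these 5 lists 1 gene, the adipocyte member Acvr1c (-0.40 ± 0.13), had an unadjusted p under 0.05, beside 10.2% of all genes. Leaving out the 5 libraries gave medians of -0.09 for smooth muscle, -0.14 for enteric nerve, 0.26 for endothelium, -0.38 for adipocyte and 0.32 for red blood cell genes, so that the first 2 of these turned sign.

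**Figure D5:**
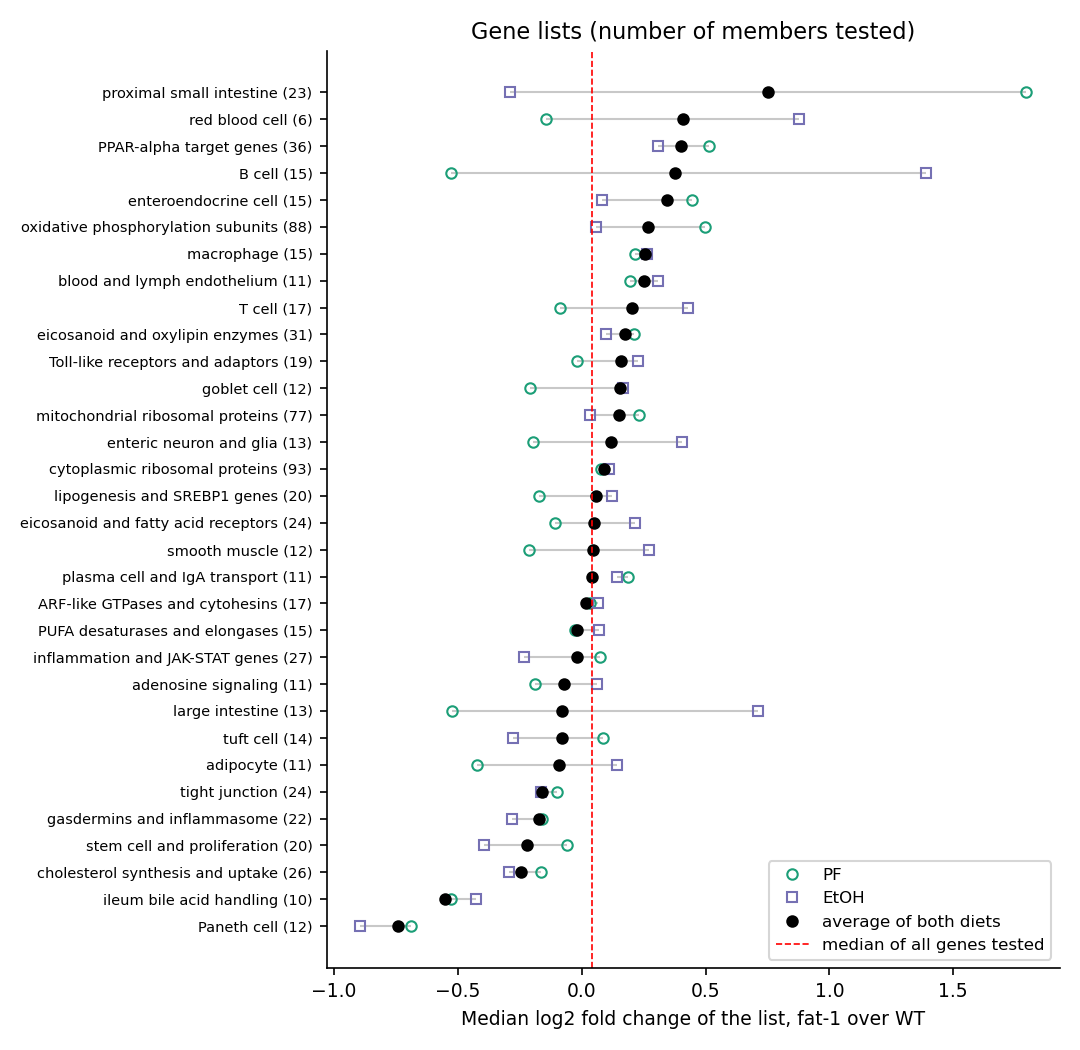
Median log2 fold change between fat-1 and WT mice (x axis) of each gene list (y axis, with the number of members tested), as the average of both diets (black), in PF (green circles) and in EtOH-fed mice (purple squares). The red line marks the median of all genes (0.04). The diets lie on opposite sides for proximal small intestine (1.80 and -0.29), B cell (-0.53 and 1.39) and large intestine genes (-0.52 and 0.71), and on the same side for PPAR-alpha target genes (0.51 and 0.31).

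The gene families of the respiratory chain and of ribosomes were also examined, and were chosen after their values were seen. Of 88 nuclear genes of oxidative phosphorylation subunits, 66 were higher at an unadjusted p under 0.05 (75%, beside 7.13% of all genes) and 0 lower, and none was called. The median was 0.27, but it was 0.50 in PF, where 72 were higher (beside 9.25% of all genes), and 0.06 in EtOH-fed mice, where 0 were (beside 3.4% of all genes). The unadjusted interaction p was under 0.05 for 41 of the 88 genes, beside 8.26% of all genes. The count of 66 was 35 with the region scores as covariates, 10 without fat-1 PF replicates 2 and 4 and 12 without the 5 libraries that stand apart, where 4.67%, 1.68% and 1.87% of all genes were higher. The median was 0.15 without fat-1 PF replicates 2 and 4 and 0.14 without the 5 libraries, and in PF mice it was 0.27 in both cases. With 1 mouse left out, the count was 41 or 42 without fat-1 PF replicate 2 (beside 4.28% of all genes) or 4 (4.19%) or WT EtOH replicate 1 (4.51%).

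Of 77 mitochondrial ribosomal protein genes, 28 were higher (36.4%, beside 7.13% of all genes), with a median of 0.15 (0.23 in PF and 0.03 in EtOH). That count was 11 without the 5 libraries (beside 1.87% of all genes). It was 16 to 18 without WT EtOH replicate 1 or 3, fat-1 EtOH replicate 4 or fat-1 PF replicate 4, where 4.19% to 4.59% of all genes were higher. Of 93 cytoplasmic ribosomal protein genes, 8 were higher (8.60%, beside 7.13%), with a median of 0.09. Without the 5 libraries the median was 0.15 and 11 were higher, beside 1.87% of all genes. The count of 8 was between 2 and 5 without WT PF replicate 1, 3 or 4, WT EtOH replicate 1 or 3, fat-1 PF replicate 3 or fat-1 EtOH replicate 1, 4 or 5. In these runs 4.51% to 7.72% of all genes were higher.

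The sign of the genotype effect also went with the exon length of the gene, with a smaller spread of medians under EtOH than under PF. Exon length is that of all annotated exons of a gene merged, which can exceed any single transcript. Genes higher at an unadjusted p under 0.05 had a median exon length of 3104 bases, those lower 6828 bases, and all genes tested 4438.5 bases. When the genes were split by exon length into 4 sets of like size, 12.6% of the shortest (231 to 2790 bases) were higher and 1.16% lower. Of the longest, 2.87% were higher and 6.23% lower. Under PF, the median log2 fold change was 0.12 in the shortest and -0.08 in the longest set, and under EtOH it was 0.06 and 0.02. The median exon length was 1737 bases for oxidative phosphorylation subunits and 3291.5 for PPAR-alpha target genes, and 7701 bases for Arl4a. The part of exon length in these differences was not tested.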

How the data were processed

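The authors sequenced poly(A) RNA of the ileum with a strand-marking kit, aligned the reads to mm10 with tophat2 guided by an Ensembl annotation and counted reads per gene with htseq, and the deposited values are these raw counts, not normalized. The settings of the counting, strand included, are not given in the sources used here. The submitters' processing notes also name bcl2fastq, FastQC 0.10.1 and Cufflinks.

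All 16 libraries entered edgeR 4.0.16 (R 4.3.3), with TMM scaling, edgeR's filter on low counts, a mean for each of the 4 groups and the quasi-likelihood test. The genotype effect is the mean of the PF and EtOH differences, and the interaction is their difference. P-values were adjusted by Benjamini-Hochberg over all 13811 genes, and 0.05 was the limit. They measure the spread between mice, 1 library each. Levels (CPM) are counts scaled by library size and TMM factor. Precision is limited by 8422645 to 11438539 counted reads, and 3 counts were taken as the floor. DESeq2 1.42.0 and limma 3.58.1 served as alternatives. The fit was also run on simulated counts, and no result given here rests on that run. Positions and exon lengths are from GENCODE for GRCm38.

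Named were the called gene, the genes of smallest p with 1 sign in both diets up to 30, genes whose genotypes did not overlap in either diet, leading members of each list, Fat1, and near-identical paralogues. Other ARL4 and cytohesin genes, neighbours of Arl4a and some list members were named after their values were seen. The gene lists and members were chosen with earlier results of these data known. The families of the respiratory chain and ribosomes, and the analyses without fat-1 PF replicates 2 and 4 and without 5 libraries, were chosen after seeing the data. Replicate numbers did not pair the mice. The transgene was not analysed here. Some list members enter the counts and medians but are not reported here by name.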

Additional observations from a re-analysis of the deposited data

Results flagged for a closer look

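In groups of 4 or 5 mice, 1 mouse lay far from the others of its group in 18 of 276 groups tested over 92 genes, and chance gives about 1 in 20 (5%). Among the genes ranked next to Arl4a, Ndufa12 was at 43.2 CPM in fat-1 EtOH replicate 4, Acp1 at 29.0 CPM in fat-1 EtOH replicate 1 and Zfp37 at 7.32 CPM in WT PF replicate 1. Of the genes whose genotypes did not overlap in either diet, Adck1 was at 17.8 CPM in fat-1 PF replicate 2 and Rpl35a at 105 CPM in fat-1 EtOH replicate 5. Raph1 was at 177 CPM in WT PF replicate 4 and at 98.7 CPM in fat-1 PF replicate 2.

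Of the fatty acid and receptor genes, Srebf1 was at 66.3 CPM in fat-1 EtOH replicate 1, Rxra at 241 CPM in fat-1 PF replicate 2 and Cyp4a10 at 0.546 CPM in WT PF replicate 1, where the other 3 mice had 0. Of the bile acid genes, Nr0b2 was at 0.104 CPM in WT PF replicate 4 and Fgf15 at 74.9 CPM in fat-1 PF replicate 3. In fat-1 EtOH replicate 5, Arl4c was at 33.3 CPM, Cd209b at 45.8 CPM and Socs1 at 6.50 CPM, each the highest of its group. Arl4d was at 42.9 CPM in WT PF replicate 2, Cyth1 at 87.3 CPM in fat-1 PF replicate 2 and Chgb at 86.4 CPM in WT PF replicate 1.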

How the results depend on the processing

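Arl4a passed in all 29 alternatives, 13 of method and samples and 16 that left out 1 mouse. The count of genes called was 2 with the Wald test of DESeq2, which adds H2-Q10, and 2 with the region scores as covariates, which adds Cyp4a10, a gene near the limit of detection. With 1 mouse left out it was 1 to 2, and with a replicate block 1. Replicate numbers did not pair the mice (mean correlation of same-numbered mice -0.0145, of others 0.00627), and the block reversed only Fabp2 (0.014) and Arl4c (-0.11) among the named genes. The interaction was called for 0 genes in each alternative run. Of 2658 values of the 92 named genes under the alternatives, 2626 kept their sign and their side of the threshold. DESeq2 size factors and upper-quartile scaling moved the share of genes higher and lower at an unadjusted p under 0.05 from 7.13% and 3.08% to 6.28% and 3.46%, and to 5.91% and 3.79%. Both gave 5 lower tight junction and 5 higher cytoplasmic ribosomal genes. The causes of the changes that follow were not tested.

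Without the libraries with a high large intestine score, 12 PPAR-alpha target, 3 eicosanoid and 4 cytoplasmic ribosomal genes were higher (beside 4.73% of all genes). With the region scores as covariates (4.67% of all genes higher and 5.52% lower), 3 eicosanoid, 1 proximal, 0 enteroendocrine and 35 oxidative phosphorylation genes were higher. Lower were 8 gasdermin and inflammasome and 6 tight junction genes, and the enteroendocrine median was -0.0014. The proximal score is the mean of the proximal genes themselves. Their counts with it as a covariate, or without mice chosen by it, are therefore not a separate test. Without fat-1 PF replicates 2 and 4 (1.68% of all genes higher and 1.25% lower), 1 PPAR-alpha target, 0 eicosanoid, 0 proximal, 0 enteroendocrine, 10 oxidative phosphorylation and 13 mitochondrial ribosomal genes were higher. Lower were 1 gasdermin and inflammasome and 1 tight junction gene, and the enteroendocrine median was 0.015. Without the 5 libraries that stand apart (1.87% of all genes higher and 2.6% lower), the counts were 4 PPAR-alpha target, 1 eicosanoid, 0 proximal, 0 enteroendocrine, 12 oxidative phosphorylation and 11 mitochondrial ribosomal genes higher. The count of tight junction genes lower was 1, and the enteroendocrine median was -0.015.

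Some log2 fold changes reversed, none of which had passed the test. Without the high large intestine libraries these were Fabp2 (0.11), Arl4d (0.17), Ppara (-0.22) and Cpt1a (-0.012). Without fat-1 PF replicates 2 and 4 they were Vnn1 (0.044), Fabp2 (0.014), Arl4d (0.024), Ppara (-0.039) and Fads1 (-0.037). Without the 5 libraries they were Vnn1 (0.15), Fabp2 (0.22), Arl4d (0.24), Ppara (-0.31), Fads1 (-0.087) and Fabp6 (0.23, against -0.60 with all mice). With limma voom, Arl4d was at 0.044 and Ppara at -0.17, and with the covariates Ppara was at -0.088. With 1 mouse left out, Arl4d ranged from -0.15 to 0.058, Ppara from -0.080 to 0.19 and Arl4c from -0.12 to 0.72.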
